A study of Homo sapiens with 18 samples.

Results

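The response of LATS1/2 knockout cells to zinc was described across all genes in 6 of the 18 libraries of the series. These were the 3 libraries labelled as LATS1/2 double knockout in zinc and the 3 labelled as the same cells in water, taken by their column names. Treatment lasted 4 h, with 250 uM ZnCl2 or with water as the control, in HEK293A cells, a flat-growing subline of the HEK293 line of human embryonic kidney. The wild-type HEK293A libraries in water and in zinc, 3 of each, served for the comparison of genotypes, and the remaining 6 libraries, treated with cadmium, entered only the fit of the spread. RNA was taken up in TRIzol and made into stranded TruSeq mRNA libraries. Whether the replicates, called biological in the labels, were separate cultures is not said, so a p-value here reflects only how much these libraries varied, which may be technical variation. The labels also do not give which bases were edited and whether the knockout is 1 clone, so the effect of the genotype and that of a clone cannot be told apart.

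The Hippo kinases LATS1 and LATS2 phosphorylate YAP and TAZ, coactivators that are thereby held in the cytoplasm. An excess of zinc is read by the transcription factor MTF1, which binds metal response elements upstream of the metallothioneins, small cysteine-rich proteins that bind metal, and of the zinc exporter SLC30A1. Zinc also binds the thiols of other proteins, and heat shock, oxidative stress and unfolded protein responses are known to follow metal loads in cultured cells. The title of the series names the regulation of the heavy metal response by LATS, and zinc in the knockout shows which transcripts respond where both kinases were targeted.

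The 6 knockout libraries held 26846222 to 37148046 counts each. Levels are given as CPM, a gene's share of its library's counts, scaled with the trimmed mean of M values (TMM), and changes are log2 fold changes of zinc over water ± an approximate standard error. The targeted gene LATS1 (ENSG00000131023, chromosome 6, 149658153 to 149718256) lay at 46.1, 44.02 and 45.6 CPM in the knockout libraries in water and at 50.4, 48.4 and 48.5 CPM in zinc, below all 6 wild-type libraries, at 77.3 to 81.97 CPM in water and 78.2 to 84.5 CPM in zinc. LATS2 (ENSG00000150457, chromosome 13, 20973032 to 21061547) lay at 18.2, 18.9 and 18.7 CPM in water and 38.2, 35.99 and 40.4 CPM in zinc, a log2 change of 1.04 ± 0.06 (adjusted p = 8.95e-23, edgeR quasi-likelihood test), and its level in water was not below that of wild type, at 16.2 to 16.5 CPM. Editing need not stop transcription, and counts summed over the LATS2 gene therefore do not check the label. Of the markers of the HEK293 line, the keratins KRT8 and KRT18 lay at 1642 ± 12.3 and 819 ± 12.1 CPM in water (mean ± SD of a group's libraries, n = 3, here and below) and the neurofilament NEFL at 104 ± 1.71 CPM, while PAX2, with 13 counts in water and 22 in zinc over the 3 libraries each, was not tested. Markers of blood cells summed to 2.19 to 2.66 CPM in water and 3.07 to 4.02 CPM in zinc, with PTPRC and HBB at 0. Those of keratinocytes and epithelium summed to 7.24 to 8.25 and 6.20 to 6.74 CPM, and those of fibroblasts to 50.2 to 56.5 and 56.1 to 63.7 CPM. The markers of the HEK293 line summed to 2751 to 2791 CPM in knockout water, most of it KRT8 and KRT18, but 872 to 900 CPM in wild-type water. In wild-type water fibroblast markers summed to 11.2 to 13.1 CPM, those of keratinocytes and epithelium to 0.879 to 0.957 CPM and those of blood to 1.62 to 1.91 CPM. Each of these sums, which their abundant members set, was thus higher in the knockout in water, and the cause was not tested. Within the knockout groups no library stood apart, and the first principal component of the 6 libraries, 95.7% of their variance, separated water from zinc.

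Zinc moved most of the genes measured, the majority of them by little. Of 19393 genes tested, 10829 (55.8%) changed at an adjusted p under 0.05 in edgeR's quasi-likelihood test, adjusted by Benjamini-Hochberg, 5456 higher (28.1%) and 5373 lower (27.7%). Of those called, 6829 (63.1%) changed by less than 1.5-fold. Among large changes increases were more numerous: 1392 genes rose and 545 fell by at least 2-fold (7.18% and 2.81% of genes tested), 368 rose and 52 fell by 4-fold, and 58 rose and 2 fell by 16-fold. With only genes of at least 5 CPM in 3 libraries tested, 456 rose and 159 fell by at least 2-fold. The shares of all genes called higher and lower, 28.1% and 27.7%, are the background for every count of list members below. In 6046 genes (31.2%) all 3 zinc libraries lay above all 3 water libraries, and in 6023 (31.1%) below. Of the 14550 protein-coding genes tested, 4397 rose and 4663 fell, while of the 767 processed pseudogenes 23.3% rose and 8.34% fell. Higher genes made up 50.4% of those called with TMM and 37.2% with library size alone, where the median of all genes moved from 0.00 to -0.09, so the balance of small changes depends on the scaling.

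**Figure D1:**
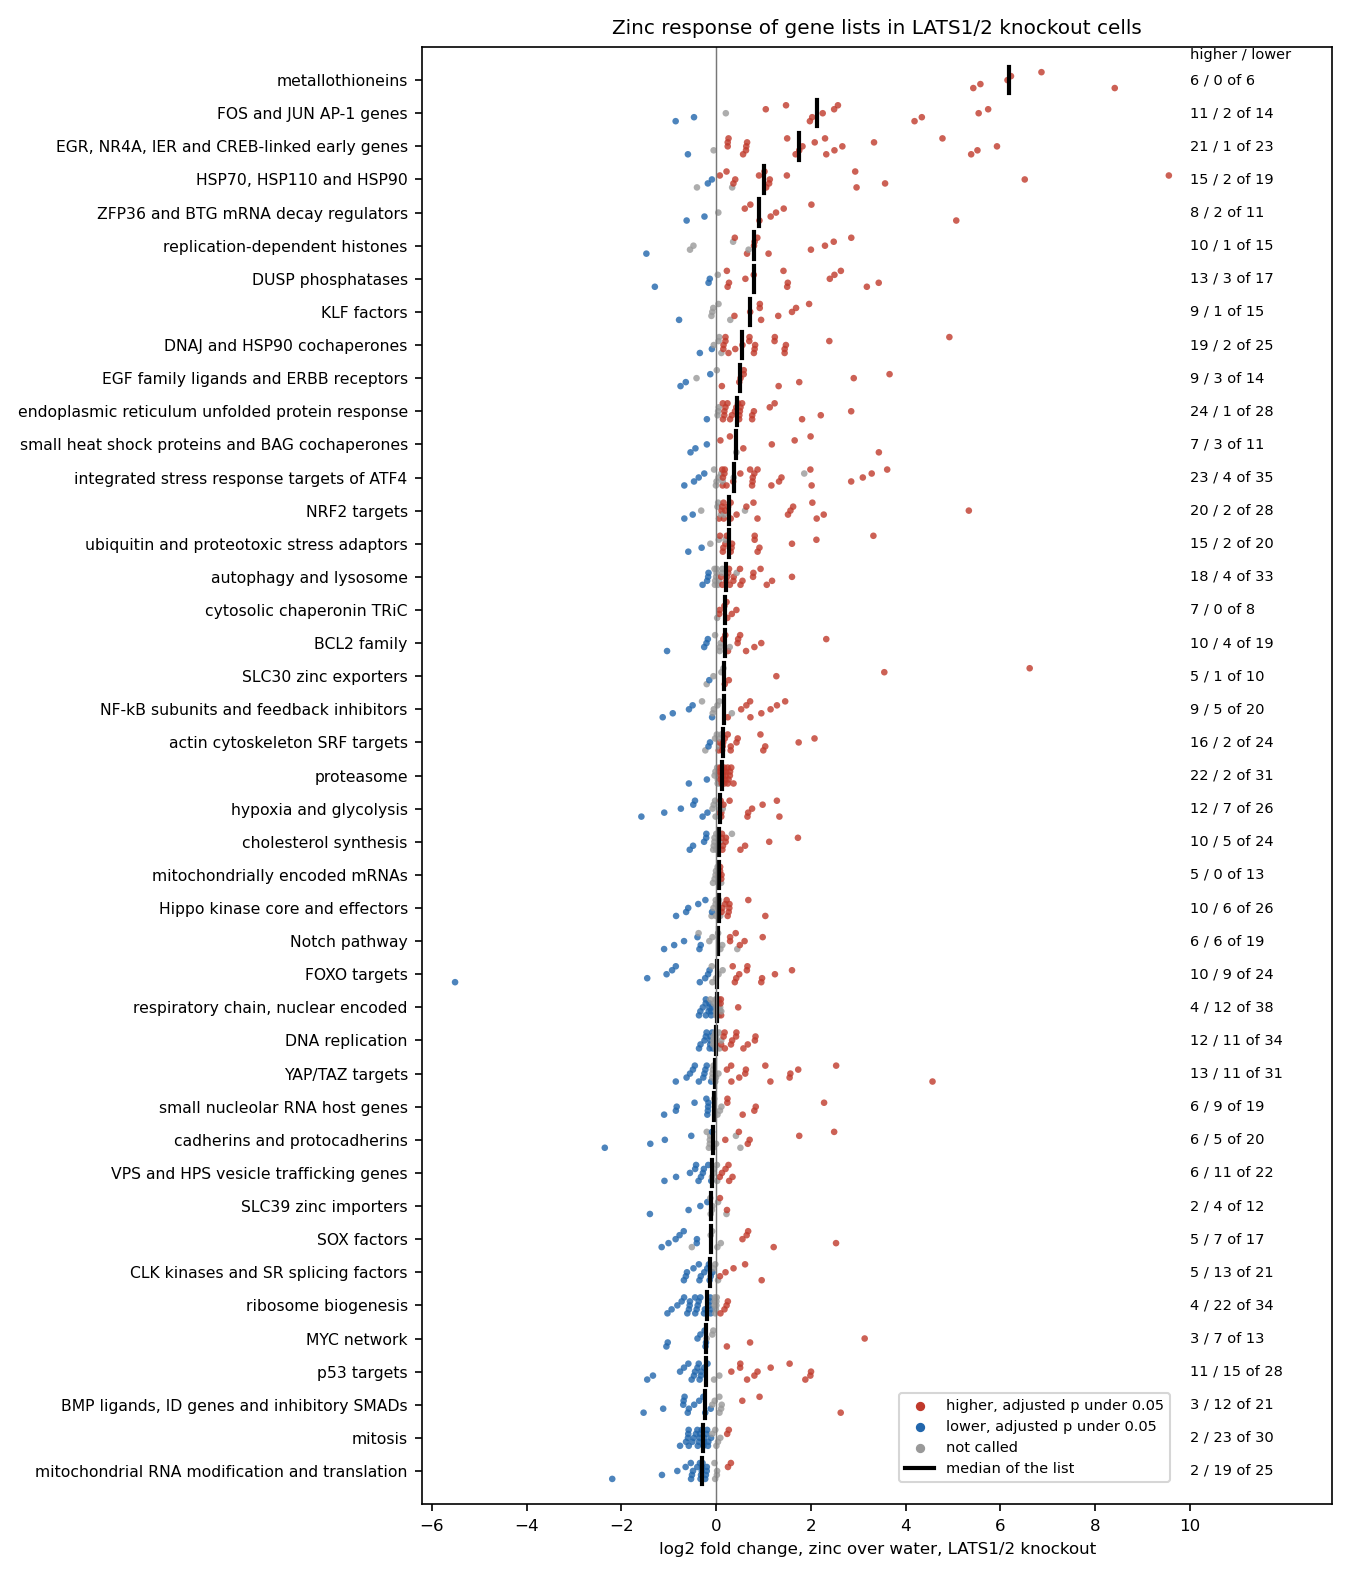
Log2 fold changes of zinc over water in LATS1/2 knockout cells (x axis) for the tested members of 43 gene lists (y axis), 1 point per gene, with the list's median as a bar and the number of members called higher and lower at an adjusted p under 0.05 at the right. The medians of the metallothioneins (6.19), the AP-1 genes (2.14) and the EGR, NR4A and IER early genes (1.76) lie furthest to the right, and those of the mitochondrial RNA modification genes (-0.30) and the mitosis genes (-0.29) furthest to the left.

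The promoters of the zinc-binding genes are shown first, since the metal response element is the sequence through which MTF1 acts. The core was searched as TGCACNC and TGCGCNC on both strands, forms that differ at the fourth base and whose matches can overlap on opposite strands, in the 250 bases before each gene's start in the RefSeq table (GRCh38.p14). At least 1 match was found in 24.7% of 27305 promoters and at least 3 in 1.56%. Of the 6 tested metallothioneins 4 had a promoter in the table, and all 4 held at least 3 matches, MT1B 3, MT1X 4, MT2A 7 and MT1H 8. Of the 9 tested SLC30 exporters with a promoter in the RefSeq set, 5 held at least 1 match: the vesicular exporter SLC30A2 3, SLC30A3 2 and SLC30A1, SLC30A4 and SLC30A6 1 each. SLC30A5 and SLC30A7, which rose, held 0, and SLC30A4 and SLC30A6 were not called. The stretches below lie before the gene in GENCODE 29 as well, and capitals mark the core.
MT1X, chr16:56682310-56682423, plus strand: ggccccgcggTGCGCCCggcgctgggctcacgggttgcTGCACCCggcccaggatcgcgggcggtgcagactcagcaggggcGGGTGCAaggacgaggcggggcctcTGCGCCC
MT1H, chr16:56669644-56669813, plus strand: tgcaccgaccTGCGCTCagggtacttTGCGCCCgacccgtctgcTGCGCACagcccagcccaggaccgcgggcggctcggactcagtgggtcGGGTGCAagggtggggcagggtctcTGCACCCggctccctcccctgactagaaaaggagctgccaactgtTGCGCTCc
SLC30A2, chr1:26046134-26046283, minus strand: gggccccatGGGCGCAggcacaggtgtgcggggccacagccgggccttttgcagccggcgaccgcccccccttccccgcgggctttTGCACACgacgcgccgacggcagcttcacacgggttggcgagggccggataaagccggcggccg
SLC30A1, chr1:211579162-211579241, minus strand: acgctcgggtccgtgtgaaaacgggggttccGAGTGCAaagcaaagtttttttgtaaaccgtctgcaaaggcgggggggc

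Metallothionein mRNAs rose from low levels, and MT2A reached the highest level of the list. MT2A (ENSG00000125148, chromosome 16, 56608199 to 56609497) stood at 24.8, 29.4 and 26.5 CPM in the water libraries and 1336, 1290.5 and 1231 CPM in the zinc libraries, a log2 fold change of 5.58 ± 0.10. MT1X (ENSG00000187193, chromosome 16, 56682424 to 56684196) stood at 5.08, 5.24 and 5.68 CPM and 374, 391 and 379 CPM (6.15 ± 0.06), and MT1F (ENSG00000198417, chromosome 16, 56657694 to 56660698) at 1.59, 1.63 and 2.01 CPM and 79.6, 77.6 and 71.8 CPM (5.43 ± 0.09). In these 3 genes every zinc library lay above every water library, and the zinc libraries lay close to each other. The list of 11 genes as a whole summed to 31.5, 36.2 and 34.2 CPM in water and 1798, 1768 and 1690.2 CPM in zinc. Per kilobase of annotated exon, merged over all transcripts of the gene, MT2A went from 20.7 to 989.7 CPM. The merged length, 1299 bases, covers the whole span of the gene. The value is therefore not a level per length of spliced mRNA and is not compared with other genes. MT1G had 773 counts in the zinc libraries and 2 in water, or 409 times as many (112.8 to 3383, 95% counting interval), while MT1H (44 counts) and MT1B (28) had 0 in water and were at least 15.5-fold and 9.88-fold higher if 3 counts in all are taken as the floor for water. These 3 genes passed the filter on low counts through metal-treated libraries, so that all 6 tested members rose (beside 28.1% of all genes; median 6.19, or 5.50 with MT1B and MT1H at their bounds) is a description. Of the other 5, MT1E had 6 counts in zinc and 0 in water, and MT1A, MT1M, MT3 and MT4 were at 0 in all 6 libraries. The MT1 genes are near copies of each other, so the division of reads among them is uncertain, and the 8 MT1 genes together rose 65.8-fold. Adjusted p was 1.05e-38 (MT1F) to 4.61e-15 (MT2A) for MT2A, MT1X and MT1F in the edgeR quasi-likelihood test.

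Zinc exporters moved in part and importers little. SLC30A1 (ENSG00000170385, chromosome 1, 211571568 to 211578742), the exporter of the plasma membrane, stood at 58.6, 58.3 and 59.4 CPM in water and 671, 692 and 703 CPM in zinc (3.55 ± 0.04). SLC30A2 (ENSG00000158014, chromosome 1, 26037252 to 26046133), which loads zinc into vesicles, stood at 1.76, 1.66 and 1.68 CPM and 168, 170.1 and 164 CPM (6.62 ± 0.16). Neither gene's groups overlapped. Of the 10 SLC30 genes 5 rose and 1 fell, beside 28.1% and 27.7% of all genes, with a median of 0.17 beside 0.00 for all genes tested, and SLC30A3 (1.27 ± 0.17, from 1.24 ± 0.314 to 3.05 ± 0.428 CPM) and SLC30A7, a transporter of the secretory pathway (0.27 ± 0.05), were among those that rose. SLC30A10, a transporter known for manganese export, lay at 2.29, 1.76 and 2.31 CPM and 2.31, 2.21 and 2.56 CPM, and its groups overlapped. Of the 12 SLC39 importers tested, 2 rose and 4 fell (1 higher and 8 lower with library size alone). The importer SLC39A10 (ENSG00000196950, chromosome 2, 195575977 to 195737702) fell from 63.3, 67.1 and 69.6 CPM to 23.7, 25.8 and 26.5 CPM (-1.40 ± 0.05), SLC39A3 by 0.58 ± 0.06 and SLC39A9 by 0.33 ± 0.04, while SLC39A14, which also carries iron, rose by 0.23 ± 0.03. Adjusted p of the zinc handling genes named as changed ran from 5.49e-49 (SLC30A1) to 9.08e-06 (SLC30A7) in the edgeR quasi-likelihood test.

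Chaperones for damaged cytosolic proteins rose at high levels. The heat shock element bound by the factor HSF1 was searched on both strands as the blocks GAA, TTC, GAA or TTC, GAA, TTC, each 2 bases after the last, forms that can overlap, and was found in 0.440% of promoters. Of the 17 HSP70, HSP110 and HSP90 genes with a promoter in the table it stood in those of HSPA6 and HSPA8, and of the 23 genes of DNAJ proteins and HSP90 cochaperones in those of DNAJB6 and CHORDC1. It stood in 0 of 9 promoters of small heat shock protein and BAG genes. Only full matches were counted, in the same stretch before the start as for the metal response element. Other forms and sites further upstream were not searched, so the absence of a match does not show that a gene lacks the element. The promoter of HSPA6, the gene with the largest log2 fold change of all named, is shown with the match in capitals.
HSPA6, chr1:161524450-161524539, plus strand: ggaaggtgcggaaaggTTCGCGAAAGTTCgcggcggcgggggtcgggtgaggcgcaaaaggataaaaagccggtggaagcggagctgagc

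HSPA6 (ENSG00000173110, chromosome 1, 161524540 to 161526910), a strictly inducible member of the HSP70 family, stood at 1.62, 2.26 and 1.46 CPM in water and 1438, 1333 and 1212 CPM in zinc (9.56 ± 0.27). Its near copy HSPA7 had 962 counts in the zinc libraries against 2 in water, a ratio of 508.9 (95% counting interval 140.5 to 4208), and how reads fitting both were assigned is not given in the sources used here. The same holds for HSPA1A and HSPA1B, the inducible HSP70 genes, which were therefore summed as well: together they lay at 832.1, 930.5 and 933.8 CPM in water and 7343, 6979 and 6788 CPM in zinc, a 7.83-fold rise. Taken singly, HSPA1A rose by 6.51 ± 0.11 from 1.94, 1.72 and 1.93 CPM and HSPA1B by 2.94 ± 0.08 from 830.1, 929 and 932 CPM. Among abundant chaperones, HSP90AA1, the stress-inducible HSP90, stood at 3611, 3422 and 3421 CPM and 10235, 9661 and 9539 CPM (1.49 ± 0.05), and its constitutive counterpart HSP90AB1 at 2036, 2000.0 and 1958 CPM and 4217, 4168 and 4081 CPM (1.06 ± 0.03). HSPA8 rose by 1.13 ± 0.03, and HSPH1, a nucleotide exchange factor of HSP70, from 281 ± 4.67 to 3330.2 ± 119 CPM (3.57 ± 0.05). Of the 19 genes of the HSP70, HSP110 and HSP90 families 15 rose, 10 of them by 2-fold or more, and 2 fell (beside 28.1% and 27.7% of all genes, and 7.18% higher by 2-fold), with a median of 1.02. The list summed to 11643, 11440.0 and 11363 CPM in water and 35547, 34248 and 33499 CPM in zinc.

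Partners of HSP70 and HSP90 rose with them. DNAJB1 (ENSG00000132002, chromosome 19, 14514770 to 14529770), the J-domain protein that directs HSP70 to aggregates, stood at 214, 219 and 200.3 CPM in water and 6571, 6362 and 6259 CPM in zinc (4.92 ± 0.07). Of 25 genes of DNAJ proteins and HSP90 cochaperones 19 rose and 2 fell (76.0% higher and 8.0% lower; median 0.56), among them DNAJB4 (2.39 ± 0.06), DNAJA1 (1.47 ± 0.03) and DNAJB5 (1.45 ± 0.11) on the rising side and the mitochondrial DNAJA3 (-0.34 ± 0.03) on the falling side. BAG3 (ENSG00000151929, chromosome 10, 119651370 to 119677819), which links HSP70 to selective autophagy, stood at 81.4, 87.3 and 85.6 CPM and 956, 923 and 874 CPM (3.44 ± 0.06), and its partner, the small heat shock protein HSPB8, at 36.2 ± 0.417 and 144 ± 5.50 CPM (1.99 ± 0.12). HSPB1 rose by 1.66 ± 0.08 and BAG2 by 0.57 ± 0.04, while BAG5 fell by 0.54 ± 0.05. The folding machine for actin and tubulin, TRiC, changed far less: 7 of its 8 subunit genes rose, by 0.43 ± 0.02 for TCP1 and 0.33 ± 0.02 for CCT6A, with a median of 0.20. Adjusted p of the chaperone genes named as changed ran from 4.31e-43 (DNAJA1) to 3.96e-09 (HSPB8) in the edgeR quasi-likelihood test.

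Genes of protein disposal shifted in the same direction with smaller changes. ZFAND2A (ENSG00000178381, chromosome 7, 1152071 to 1160759), an arsenite-inducible regulator of the proteasome, stood at 10.8, 9.38 and 9.35 CPM and 102, 97.8 and 93.3 CPM (3.32 ± 0.10), and the autophagy adaptor SQSTM1 at 129, 124 and 126 CPM and 381, 385 and 382 CPM (1.60 ± 0.03). Of 20 genes of ubiquitin and its adaptors 15 rose and 2 fell (beside 28.1% and 27.7% of all genes), the latter NFE2L1 (-0.59 ± 0.03), the factor that raises proteasome genes after proteasome inhibition, and UBQLN2 (-0.31 ± 0.04). Of 31 proteasome genes 22 rose and 2 fell (71.0% higher and 6.5% lower), none by 2-fold, with a median of 0.12 and PSMA1 (0.32 ± 0.04), PSMC2 (0.29 ± 0.03) and PSMD14 (0.29 ± 0.03) among those that rose. With library size alone as scaling the proteasome genes had 13 higher and 4 lower. Autophagy and lysosome genes had 18 of 33 members higher and 4 lower (median 0.22), with TFE3, a regulator of lysosome genes, at 1.07 ± 0.04, the kinase ULK1 at 1.18 ± 0.11 and MAP1LC3B, the marker protein of autophagosomes, at 0.94 ± 0.04. By the edgeR quasi-likelihood test, adjusted p of these genes ran from 1.11e-44 (SQSTM1) to 4.28e-07 (ULK1).

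**Figure D2:**
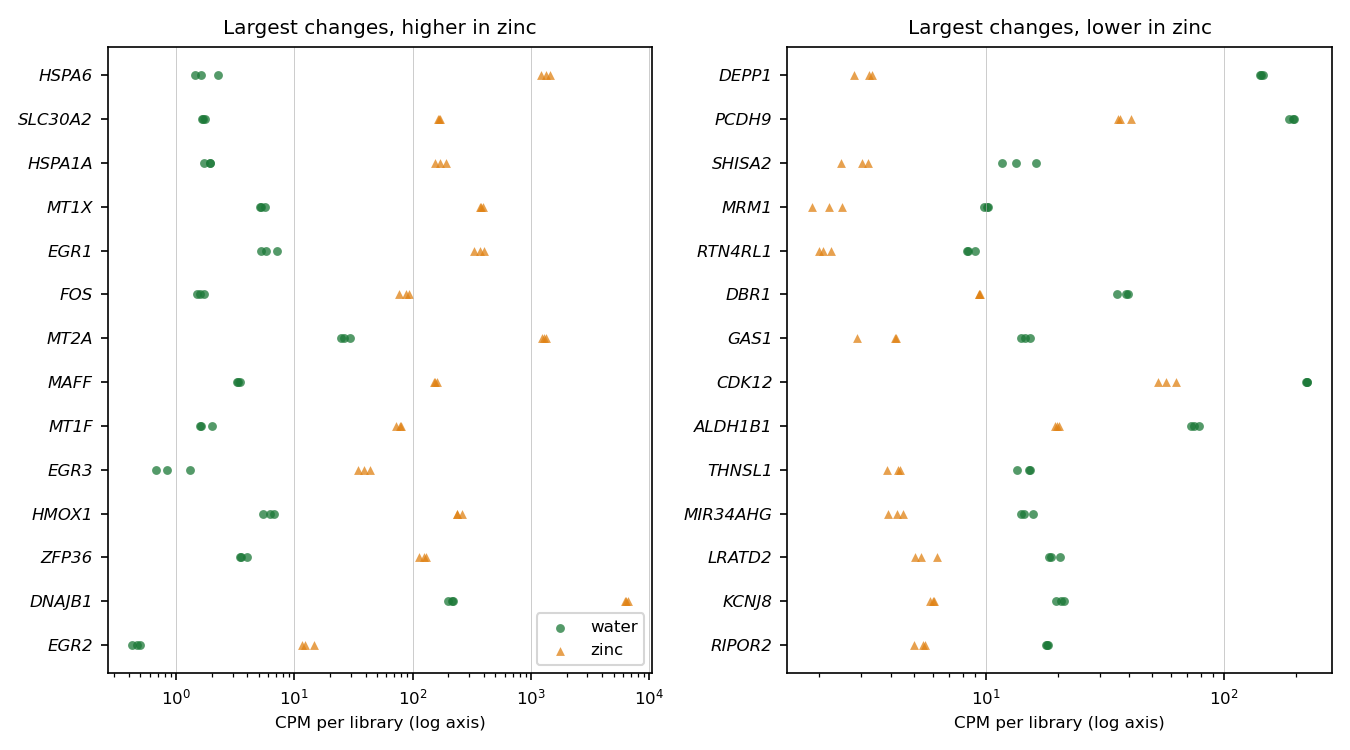
Level of the genes described among the 15 with the highest (left) and the 15 with the lowest (right) log2 fold change in each of the 3 water and 3 zinc libraries of LATS1/2 knockout cells, in CPM on a log axis, leaving out HSPA7, which had 0 counts in a water library. In every gene shown the zinc points lie to one side of all water points, with HSPA6 at 1.46 to 2.26 CPM in water and 1212 to 1438 CPM in zinc and DEPP1 at 141 to 145 CPM in water and 2.82 to 3.33 CPM in zinc.

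Immediate early genes, which are transcribed within minutes of a stimulus without new protein synthesis, were higher in zinc at 4 h. EGR1 (ENSG00000120738, chromosome 5, 138465490 to 138469315) is a zinc finger factor whose promoter is a classical target of serum response factor. The CArG box to which that factor binds was found in 1.14% of promoters, and of the 17 EGR, NR4A, IER and CREB-linked genes with a promoter in the table in those of EGR1 and SRF. It was found in 0 of 11 promoters of the AP-1 genes. The search covered the same stretch before the start as for the metal response element, and sites further upstream were not searched. The absence of a match therefore does not show that a gene lacks the box. The EGR1 promoter is shown because it holds 2 CArG boxes, in capitals.
EGR1, chr5:138465364-138465478, plus strand: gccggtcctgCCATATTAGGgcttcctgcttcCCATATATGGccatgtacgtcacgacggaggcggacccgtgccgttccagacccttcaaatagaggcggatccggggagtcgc
EGR1 stood at 5.22, 7.18 and 5.70 CPM in water and 332, 402 and 370.1 CPM in zinc (5.93 ± 0.11), and EGR3 at 0.846, 1.32 and 0.678 CPM and 34.5, 43.5 and 39.1 CPM (5.38 ± 0.12). EGR2 rose by 4.78 ± 0.14, to 12.8 ± 1.56 CPM, and EGR4 had 17 counts in zinc and 0 in water, at least 6.0-fold higher against the same floor. In all 4 EGR genes the zinc libraries lay above the water libraries. Of the 23 genes of this list 21 rose and 1, IER5L, fell (-0.60 ± 0.13), beside 28.1% and 27.7% of all genes, with a median of 1.76. MCL1, an antiapoptotic protein with a short life, stood at 271, 274 and 266 CPM and 1312, 1356 and 1392 CPM (2.32 ± 0.04).

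Of the 14 AP-1 genes tested 11 rose, all by 2-fold or more, and 2 fell (78.6% higher and 14.3% lower, beside 28.1% and 27.7%; median 2.14). FOS (ENSG00000170345, chromosome 14, 75278774 to 75282230) stood at 1.59, 1.72 and 1.51 CPM and 76.5, 92.4 and 88.6 CPM (5.74 ± 0.08), FOSB at 1.48, 1.57 and 1.61 CPM and 25.6, 30.4 and 29.5 CPM (4.19 ± 0.20). FOSL1 stood at 12.3, 13.3 and 13.6 CPM and 266, 272 and 261 CPM (4.34 ± 0.06). The JUN partners changed less, with JUN at 1.05 ± 0.03, JUNB at 1.48 ± 0.06 and JUND at 1.98 ± 0.08. The small MAF factors, which pair with NRF2 and with FOS, also rose: MAFF stood at 3.24, 3.48 and 3.32 CPM and 155, 160.3 and 153 CPM (5.54 ± 0.07), MAFG changed by 2.25 ± 0.04 and MAFK by 2.03 ± 0.06. ATF3, induced by many stresses, went from 89.6 ± 3.92 to 532 ± 14.7 CPM (2.57 ± 0.07). The repressor JDP2 fell by 0.47 ± 0.08. Leaving out EGR4, which is given by its counts, adjusted p of the early genes and AP-1 genes named as changed ran from 3.74e-46 (MAFG) to 9.51e-05 (IER5L) in the edgeR quasi-likelihood test.

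Feedback inhibitors of these signals moved as well. Among 17 DUSP and SPRY genes, which dampen MAP kinase signalling, 13 rose and 3 fell (beside 28.1% and 27.7% of all genes; median 0.80). DUSP1 (ENSG00000120129, chromosome 5, 172768090 to 172771195) stood at 207, 201 and 192 CPM and 1195, 1114 and 1078 CPM (2.50 ± 0.14), DUSP2 at 3.03, 3.23 and 3.72 CPM and 32.2, 37.8 and 38.97 CPM (3.43 ± 0.09). SPRY4 rose by 3.18 ± 0.07 and DUSP8 by 2.63 ± 0.06, while SPRY1 fell from 10.9 ± 0.630 to 4.45 ± 0.848 CPM (-1.29 ± 0.10). ZFP36 (ENSG00000128016, chromosome 19, 39406813 to 39409412), which binds AU-rich elements and directs mRNAs to decay, stood at 3.56, 3.95 and 3.49 CPM and 114, 130.0 and 125 CPM (5.07 ± 0.07). Of 11 mRNA decay regulators 8 rose and 2 fell, with the endoribonuclease ZC3H12A at 2.01 ± 0.07, ZFP36L1 at 1.43 ± 0.05 and BTG3 at 1.26 ± 0.04 higher, and TOB1 (-0.62 ± 0.06) and the deadenylase CNOT7 (-0.25 ± 0.04) lower. The EGFR inhibitor ERRFI1 rose by 1.75 ± 0.11, and among 14 EGF family genes 9 rose and 3 fell, with the ligands HBEGF at 2.90 ± 0.14 (15.6 ± 0.179 to 117 ± 2.27 CPM) and AREG at 3.66 ± 0.25 (0.246 ± 0.102 to 3.21 ± 0.142 CPM). Of 15 KLF factors 9 rose and 1 fell (60.0% higher and 6.7% lower), with KLF6 at 1.60 ± 0.11 and KLF5 at 1.31 ± 0.05 higher and KLF15 at -0.78 ± 0.14 lower. In the edgeR quasi-likelihood test adjusted p of these genes ran from 5.37e-46 (ZFP36) to 5.12e-06 (KLF15).

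Members of the MYC network moved in both directions. MYC (ENSG00000136997, chromosome 8, 127735434 to 127741434), the growth-promoting transcription factor, fell from 38.7, 37.9 and 37.96 CPM to 19.05, 16.8 and 19.4 CPM (-1.05 ± 0.06), without overlap of the groups. MYCN, near 1 CPM in water, fell by 1.02 ± 0.27, and the partner MAX and the regulators MGA and MLX fell by 0.22 ± 0.05, 0.39 ± 0.05 and 0.33 ± 0.04. MXD1 (ENSG00000059728, chromosome 2, 69897688 to 69942945), which competes with MYC for MAX, rose from 14.9, 15.7 and 16.7 CPM to 136, 136 and 146 CPM (3.14 ± 0.04), the largest change of the list. MLXIPL and MLXIP, glucose-responsive partners of MLX, rose by 0.72 ± 0.13 and 0.23 ± 0.03. Of the 13 genes 3 rose and 7 fell, beside 28.1% and 27.7% of all genes, with a median of -0.21, while the summed level of the list was 498, 504 and 503 CPM in water and 576, 581 and 576 CPM in zinc. Adjusted p of those named ran from 1.61e-49 (MXD1) to 0.0012 (MYCN) in the edgeR quasi-likelihood test.

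Of 28 tested targets of NRF2, which drives antioxidant genes, 20 rose and 2 fell (beside 28.1% and 27.7% of all genes; median 0.28). HMOX1 (ENSG00000100292, chromosome 22, 35380361 to 35394214), which breaks down heme, stood at 6.24, 6.77 and 5.43 CPM in water and 263, 238 and 237 CPM in zinc (5.33 ± 0.22). The glutathione synthesis subunit GCLM stood at 50.1, 51.96 and 55.6 CPM and 217, 210.1 and 219 CPM (2.03 ± 0.07), and the cystine transporter SLC7A11 at 22.7, 21.4 and 22.3 CPM and 95.6, 97.7 and 95.4 CPM (2.12 ± 0.09). OSGIN1 rose by 2.27 ± 0.16 from 1.09 ± 0.397 CPM. The 2 that fell were KEAP1 (-0.49 ± 0.04), the sensor that holds NRF2 down, and the heme transporter SLC48A1 (-0.67 ± 0.06). Their adjusted p ran from 2.26e-18 (OSGIN1) to 6.90e-11 (HMOX1) in the edgeR quasi-likelihood test.

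The integrated stress response, in which ATF4 is translated when initiation of translation is held back, moved unevenly. Of its 35 tested genes 23 rose and 4 fell (beside 28.1% and 27.7% of all genes; median 0.37). PPP1R15A (ENSG00000087074, chromosome 19, 48872392 to 48876057), the phosphatase subunit that ends the response, stood at 75.9, 78.8 and 79.02 CPM and 919, 994 and 945 CPM (3.61 ± 0.04). DDIT3, also called CHOP, stood at 8.04, 8.34 and 7.99 CPM and 76.3, 86.5 and 74.8 CPM (3.28 ± 0.08), and CHAC1, which degrades glutathione, at 1.90, 2.23 and 1.63 CPM and 15.8, 17.2 and 15.9 CPM (3.10 ± 0.11). The zinc libraries of these 3 lay above all water libraries. Other classical targets did not pass the test or fell. DDIT4, an inhibitor of mTOR, lay at 11.9, 13.2 and 12.01 CPM in water and 12.3, 13.2 and 11.5 CPM in zinc, and the pseudokinase TRIB3 at 27.2, 25.7 and 29.6 CPM and 30.8, 31.6 and 29.04 CPM. Water and zinc libraries overlapped in both genes (adjusted p = 0.989 for DDIT4 and 0.115 for TRIB3, edgeR quasi-likelihood test). STC2 (-0.37 ± 0.05), JDP2, the lipoprotein receptor VLDLR (-0.67 ± 0.06) and the tRNA exporter XPOT (-0.25 ± 0.03) fell. The amino acid response element, searched as TGATGNAA on both strands, was found in 6 of 30 promoters of the list, those of CHAC1, ASNS, PPP1R15B, FGF21, AARS1 and HERPUD1, and in 3.19% of all promoters. FGF21 had 1 count in the 6 knockout libraries.

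The unfolded protein response genes of the endoplasmic reticulum rose in 24 of 28 members and fell in 1, the sensor ATF6 (-0.20 ± 0.03), beside 28.1% and 27.7% of all genes, with a median of 0.44. Sensors of this organelle raise chaperones and degradation factors when unfolded proteins collect in its lumen. The promoter element through which ATF6 acts was searched on both strands as CCAAT and CCACG with 9 bases between them and was found in 0.0806% of all promoters. Of the 24 list members with a promoter in the RefSeq set, 6 held it: HSPA5, HSP90B1, CALR, CANX, CRELD2 and XBP1, and it is shown in capitals for the main chaperone of the lumen and for the factor XBP1.
HSPA5, chr9:125241344-125241423, minus strand: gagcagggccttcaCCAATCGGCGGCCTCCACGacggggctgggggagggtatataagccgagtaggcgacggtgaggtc
XBP1, chr22:28800598-28800639, minus strand: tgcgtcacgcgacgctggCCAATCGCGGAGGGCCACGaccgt
HSPA5 (ENSG00000044574, chromosome 9, 125234853 to 125241330) stood at 804, 805 and 817 CPM in water and 1987, 1869.6 and 1855 CPM in zinc (1.24 ± 0.09). XBP1, counted over all its splice forms, stood at 122, 120.5 and 127 CPM and 274, 269 and 268 CPM (1.13 ± 0.03). Larger changes were seen in HERPUD1, a factor of protein degradation at this organelle, at 41.3, 44.5 and 43.01 CPM and 316, 307 and 308 CPM (2.85 ± 0.07), and in the cochaperone DNAJB9, at 12.3, 13.4 and 12.5 CPM and 58.98, 57.4 and 60.5 CPM (2.21 ± 0.12). The sensor ERN1, also called IRE1, rose by 1.81 ± 0.05. Adjusted p of these ran from 4.58e-36 (ERN1) to 3.55e-06 (ATF6) in the edgeR quasi-likelihood test.

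Targets of YAP and TAZ, the coactivators that LATS1 and LATS2 restrain, split in both directions. Of 31 tested genes 13 rose and 11 fell (median -0.02), beside 28.1% and 27.7% of all genes. ANKRD1 (ENSG00000148677, chromosome 10, 90912096 to 90921276) stood at 454, 427 and 412 CPM and 2612, 2466 and 2404 CPM (2.53 ± 0.22). CCN2, the connective tissue growth factor, went the other way, from 416, 389.9 and 385 CPM to 284, 278 and 285 CPM (-0.49 ± 0.10). The groups did not overlap in either gene. GADD45B (1.73 ± 0.13), GADD45A (1.55 ± 0.11) and F3 (1.57 ± 0.08) rose, and LGR5 (-0.85 ± 0.09), DLC1 (-0.62 ± 0.05) and FOXF2 (-0.55 ± 0.06) fell. Among 26 Hippo pathway genes 10 rose and 6 fell, shares (38.5% higher and 23.1% lower) not far from those of all genes (7 higher and 10 lower with library size alone), with LATS2, itself a YAP target, and TEAD3 (0.68 ± 0.06) higher and AMOT (-0.84 ± 0.05), the LATS cofactor MOB1A (-0.63 ± 0.04) and the kinases TAOK1 (-0.59 ± 0.05) and TAOK2 (-0.38 ± 0.04) lower. Actin cytoskeleton targets of serum response factor had 16 of 24 higher and 2 lower (median 0.14, and 11 higher and 5 lower with library size alone), with FHL2 (1.04 ± 0.04) and zyxin, ZYX (1.0 ± 0.07), and at lower levels ACTA1 (2.08 ± 0.22, 0.593 ± 0.158 to 2.46 ± 0.272 CPM). The edgeR quasi-likelihood test gave these genes adjusted p of 1.62e-29 (FHL2) to 7.20e-04 (CCN2).

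Of 28 targets of p53, the DNA damage factor, 11 rose and 15 fell (beside 28.1% and 27.7% of all genes; median -0.22). CDKN1A (ENSG00000124762, chromosome 6, 36676460 to 36687339), the cyclin-dependent kinase inhibitor p21, rose from 33.1, 33.99 and 32.8 CPM to 124, 128 and 117 CPM (1.88 ± 0.05), PLK3 by 2.0 ± 0.08 and SESN2, also an ATF4 target, by 1.99 ± 0.04. SESN1 fell from 41.3, 40.2 and 37.6 CPM to 14.2, 14.4 and 14.7 CPM (-1.45 ± 0.06), and PHLDA3 (-1.33 ± 0.08), TIGAR (-0.76 ± 0.04) and the DNA repair gene XPC (-0.68 ± 0.06) fell as well. Of 24 FOXO targets 10 rose and 9 fell (10 higher and 11 lower with library size alone). DEPP1 (ENSG00000165507, chromosome 10, 44970981 to 44978810), a FOXO target that takes part in autophagy, fell the most of all named genes, from 142, 145 and 141 CPM to 2.82, 3.33 and 3.25 CPM (-5.51 ± 0.07). CITED2 (-1.05 ± 0.06) and the cell cycle inhibitor CDKN1B (-0.93 ± 0.05) fell, while BCL6 (1.24 ± 0.07) and KLHL24 (0.97 ± 0.05) rose. Of 19 BCL2 family genes 10 rose and 4 fell, with MCL1, BCL2L11 (0.95 ± 0.05) and BBC3 (0.81 ± 0.06) higher and BMF (-1.04 ± 0.14) and BAX (-0.25 ± 0.04) lower. For NF-kB 9 of 20 genes rose and 5 fell (8 higher and 8 lower with library size alone), with NFKBIZ (1.28 ± 0.06) and RELB (0.95 ± 0.09) higher and the inhibitor NFKBIA (-0.92 ± 0.07) and CCL2 (-1.13 ± 0.27) lower. Adjusted p of all these ran from 1.59e-51 (DEPP1) to 2.69e-04 (CCL2) by the edgeR quasi-likelihood test.

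Most metabolic lists had medians near that of all genes, and the genes of mitochondrial RNA were lower. In cholesterol synthesis 10 of 24 rose and 5 fell (median 0.06, and 6 higher and 11 lower with library size alone): HMGCS1 rose by 1.12 ± 0.04, while SQLE (-0.56 ± 0.03) and MVK (-0.49 ± 0.06), further along the same route, fell. In hypoxia and glycolysis 12 of 26 rose and 7 fell (6 higher and 10 lower with library size alone), with ADM (1.28 ± 0.05) and PFKFB3 (0.98 ± 0.05) higher and HILPDA (-1.58 ± 0.11), TXNIP (-1.09 ± 0.08) and EGLN3 (-0.74 ± 0.10) lower. Vesicle trafficking genes of the VPS and HPS families fell in 11 of 22 and rose in 6 (2 higher and 13 lower with library size alone), HPS6 from 46.8 ± 1.91 to 22.03 ± 0.496 CPM (-1.09 ± 0.06) and VPS18 by 0.85 ± 0.06. Of 13 mRNAs made in the mitochondria 5 rose and 0 fell, none by more than 0.11 (0 higher and 2 lower with library size alone, and 1 higher and 1 lower without water replicate 3). Of 38 respiratory chain genes of the nucleus 4 rose and 12 fell (0 higher and 20 lower with library size alone). Genes that modify or translate mitochondrial RNA fell in 19 of 25 and rose in 2 (8.0% higher and 76.0% lower, beside 28.1% and 27.7%; median -0.30). MRM1 (ENSG00000278619, chromosome 17, 36601572 to 36608971), a mitochondrial ribosomal RNA methyltransferase, fell from 9.83, 10.1 and 10.2 CPM to 1.87, 2.21 and 2.50 CPM (-2.19 ± 0.12), FASTKD2 by 1.14 ± 0.05 and the mitochondrial RNA polymerase POLRMT by 0.82 ± 0.05. Adjusted p ran from 1.98e-29 (ADM) to 7.16e-09 (EGLN3) among the metabolic genes named (edgeR quasi-likelihood test).

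Mitosis and ribosome biogenesis genes were mostly lower, by small amounts. Mitosis genes fell in 23 of 30 and rose in 2 (beside 28.1% and 27.7% of all genes higher and lower; median -0.29), with the kinase PLK1 from 114, 118 and 116 CPM to 64.7, 68.7 and 71.6 CPM (-0.76 ± 0.04), KIF11 (-0.64 ± 0.03), BUB1B (-0.59 ± 0.04) and KIF20A (-0.59 ± 0.03) lower and MYBL2 (0.27 ± 0.02) and CDK1 (0.23 ± 0.03) higher. Of 34 DNA replication genes 12 were higher and 11 lower, shares (35.3% higher and 32.4% lower) near those of all genes (median -0.01, and 10 higher and 19 lower with library size alone), and the licensing factor CDC6 (0.83 ± 0.03), its regulator E2F1 (0.82 ± 0.04) and CDC25A (0.67 ± 0.03) rose. Ribosome biogenesis genes fell in 22 of 34 and rose in 4 (median -0.19), with the RNA polymerase I subunits POLR1B (-1.03 ± 0.04) and POLR1C (-0.82 ± 0.05) and UTP15 (-0.94 ± 0.05) lower and the box C/D core proteins NOP56 (0.25 ± 0.03) and NOP58 (0.22 ± 0.03) higher. Small nucleolar RNA host genes rose in 6 of 19 and fell in 9, SNHG17 (0.84 ± 0.07) and SNHG15 (0.81 ± 0.06) among the first and SNHG19 (-1.10 ± 0.12), SNHG3 (-0.85 ± 0.06) and SNHG12 (-0.83 ± 0.07) among the second. Of 21 splicing kinases and SR proteins 13 fell and 5 rose, with CLK3 (0.96 ± 0.04) and CLK1 (0.61 ± 0.04) higher and SRSF6 (-0.68 ± 0.03), SRSF8 (-0.62 ± 0.04) and CLK2 (-0.64 ± 0.10) lower. Polyadenylated reads of the histone genes rose in 10 of 15 and fell in 1. H4C8 rose from 1.17 ± 0.382 to 6.66 ± 0.293 CPM (2.48 ± 0.14) and H3C10 by 2.30 ± 0.23, and reads of near-identical histone genes cannot be told apart with certainty. Adjusted p of these genes was 8.07e-31 (CDC6) to 9.27e-05 (CLK2) in the edgeR quasi-likelihood test.

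Regulators of development moved in both directions. Of 21 BMP, ID and inhibitory SMAD genes 12 fell and 3 rose (beside 27.7% and 28.1% of all genes; median -0.23). SMAD6 (ENSG00000137834, chromosome 15, 66702228 to 66782848), an inhibitor of BMP receptors, fell from 94.6, 91.9 and 90.4 CPM to 32.5, 30.7 and 32.5 CPM (-1.53 ± 0.04), the ligand BMP2 from 59.9, 57.2 and 57.4 CPM to 26.6, 25.1 and 28.5 CPM (-1.12 ± 0.05), and ID2 and ID4 by 0.69 ± 0.06 and 0.69 ± 0.05. The SMAD corepressor SKIL rose by 0.92 ± 0.05 and INHBA, the activin subunit, by 2.63 ± 0.32 from a low level (0.217 ± 0.0876 to 1.32 ± 0.152 CPM). Of 19 Notch pathway genes 6 rose and 6 fell, shares (31.6% higher and 31.6% lower) near those of all genes, with the receptor NOTCH1 at 0.98 ± 0.04 and the target HES1 at -1.10 ± 0.09. Of 17 SOX factors 5 rose and 7 fell, among the latter SOX12 (-1.0 ± 0.04), SOX11 (-0.85 ± 0.05) and SOX3 (-1.15 ± 0.13). The larger rises were at low levels, SOX30 by 2.53 ± 0.29 (0.269 ± 0.103 to 1.53 ± 0.415 CPM) and SOX15 by 1.21 ± 0.26 (0.545 ± 0.0494 to 1.26 ± 0.142 CPM). Of 20 cadherin genes tested out of 35, 6 rose and 5 fell, near the shares of all genes, 28.1% and 27.7% (5 higher and 8 lower with library size alone, and 3 lower without zinc replicate 2 or 3). PCDH9 (ENSG00000184226, chromosome 13, 66302834 to 67230445), a protocadherin, fell from 196, 194 and 187 CPM to 35.7, 36.7 and 40.5 CPM (-2.35 ± 0.06) and PCDH7 by 1.39 ± 0.05, while PCDH8 rose by 2.49 ± 0.54 (0.0725 ± 0.0678 to 0.470 ± 0.156 CPM) and PCDH12 by 1.75 ± 0.30 (0.310 ± 0.0528 to 1.05 ± 0.284 CPM). Their adjusted p ran from 4.90e-35 (SMAD6) to 8.87e-05 (SOX15) (edgeR quasi-likelihood test).

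Of the 15 genes with the lowest log2 fold changes, DEPP1, PCDH9 and MRM1 are described above. CDK12 (ENSG00000167258, chromosome 17, 39461511 to 39564907), a kinase of transcribing RNA polymerase II, fell from 221, 223 and 221 CPM to 52.96, 57.1 and 62.8 CPM (-1.94 ± 0.04), and DBR1, the lariat debranching enzyme, from 39.3, 35.6 and 38.7 CPM to 9.33, 9.35 and 9.48 CPM (-2.01 ± 0.07). ALDH1B1, a mitochondrial aldehyde dehydrogenase, fell from 72.6, 78.6 and 74.8 CPM to 19.9, 20.2 and 19.4 CPM (-1.92 ± 0.05). Zinc and water libraries did not overlap in these or in SHISA2 (-2.26 ± 0.12), RTN4RL1 (-2.02 ± 0.13), the growth arrest gene GAS1 (-1.95 ± 0.09), THNSL1 (-1.81 ± 0.09), the microRNA host gene MIR34AHG (-1.80 ± 0.09), LRATD2 (-1.79 ± 0.09), the potassium channel gene KCNJ8 (-1.78 ± 0.08) and RIPOR2 (-1.76 ± 0.09). The edgeR quasi-likelihood test gave adjusted p from 1.59e-39 (CDK12) to 5.28e-20 (RTN4RL1) for these genes.

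The zinc response was then compared with that of wild-type HEK293A cells, as the difference of the log2 fold changes, knockout minus wild type, tested as an interaction. It differed in 4834 genes (24.9% of those tested) at an adjusted p under 0.05 in edgeR, 2788 more positive in the knockout (14.4%) and 2046 more negative (10.6%). By class, 829 genes rose in both genotypes and less in the knockout, 347 rose in both and more in the knockout, 1118 fell in both and less in the knockout and 218 fell in both and more. Another 161 rose in the knockout and fell in wild type, 149 fell in the knockout and rose in wild type, and 2012 were called in only 1 genotype or in neither. Differences of at least 2-fold were found in 189 genes higher in the knockout and 314 lower (47 and 87 with only genes of at least 5 CPM tested, and 111 in place of 189 by DESeq2). Replicate 3 of zinc-treated wild type differed more from replicates 1 and 2 (chi-square over its degrees of freedom 4.51 and 4.59) than those did from each other (1.81). Without it 4720 genes differed. With library size alone 2334 were more positive and 2349 more negative.

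**Figure D3:**
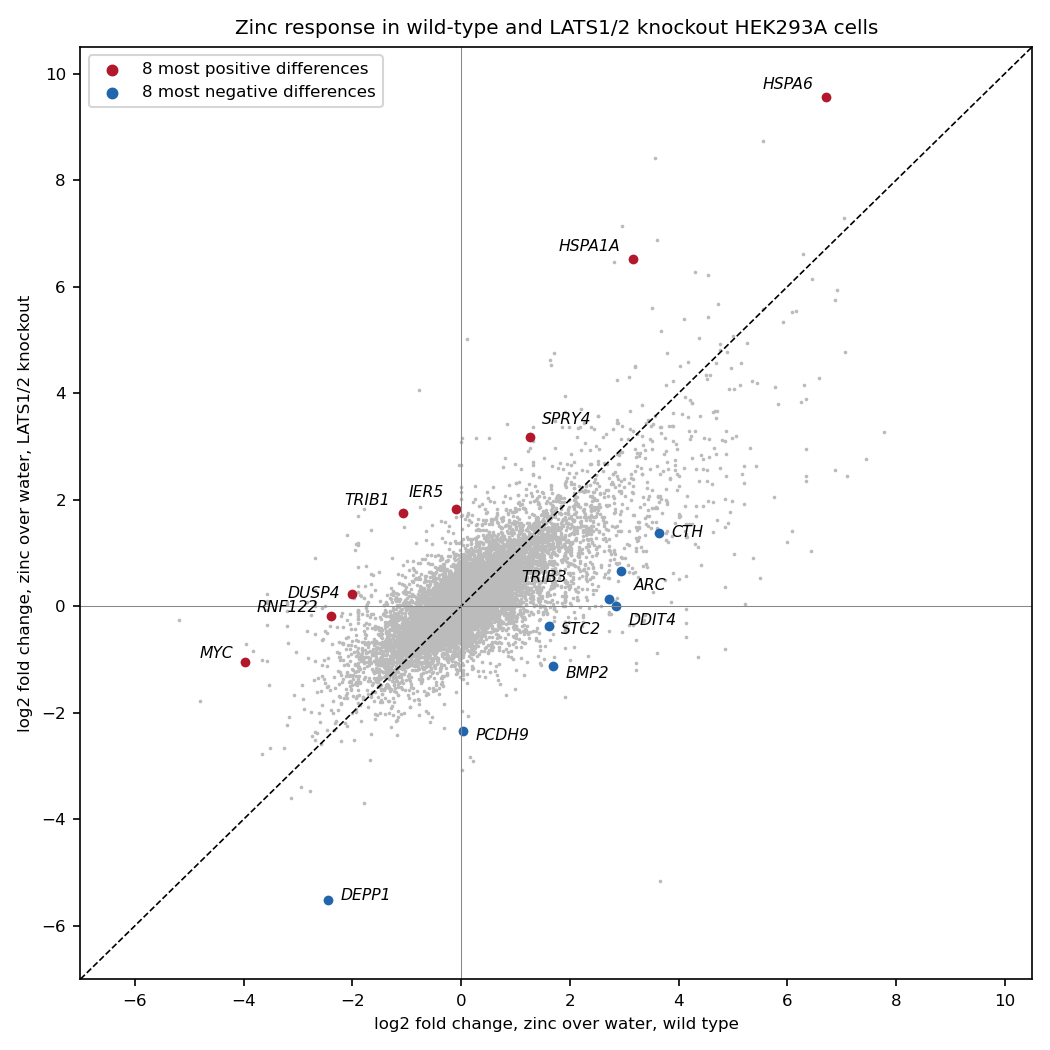
Log2 fold change of zinc over water in wild-type HEK293A cells (x axis) and in LATS1/2 knockout cells (y axis), 1 grey point per gene tested, with the 8 most positive and the 8 most negative differences among genes of at least 5 CPM named. Points above the dashed diagonal, such as HSPA1A at 6.51 against 3.16 and MYC at -1.05 against -3.97, changed more in the positive direction in the knockout.

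Among genes with the most positive difference, MYC fell less in the knockout. It went from 64.2, 70.1 and 65.3 CPM to 4.68, 4.30 and 3.81 CPM in wild type, a change of -3.97 ± 0.07 against -1.05 in the knockout, a difference of 2.92 ± 0.10. HSPA1A rose more (3.16 ± 0.16 in wild type, difference 3.36 ± 0.28), as did HSPA6 (6.71 ± 0.27, difference 2.84 ± 0.66), whose difference did not pass without replicate 3 of wild-type water (2.36, adjusted p = 0.0683 in edgeR). Summed with their near copies, the HSPA1A and HSPA1B pair rose 7.83-fold in the knockout and 5.20-fold in wild type, and the HSPA6 and HSPA7 pair 743-fold and 109-fold. TRIB1, a pseudokinase, rose by 1.75 ± 0.14 in the knockout and fell in wild type (-1.07 ± 0.12, difference 2.82 ± 0.18). DUSP4 fell in wild type (-2.0 ± 0.06) where the knockout rose by 0.23 ± 0.05 (difference 2.23 ± 0.08), and SPRY4 rose by 1.26 ± 0.06 in wild type (difference 1.92 ± 0.10). For RNF122, a ubiquitin ligase, the knockout lay at 6.38 to 7.75 CPM in water and 5.63 to 6.87 CPM in zinc where wild type fell (-2.39 ± 0.08, difference 2.21 ± 0.13), and for IER5 wild type lay at 51.6 to 54.3 and 46.1 to 51.5 CPM where the knockout rose by 1.82 ± 0.04 (difference 1.92 ± 0.05). In edgeR, adjusted p of these differences ran from 3.87e-33 (IER5) to 0.00621 (HSPA6).

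Of the 8 genes with the most negative difference, 4 are targets of ATF4 by the list: DDIT4, TRIB3, STC2 and CTH. The list held 35 of the 19393 genes tested. It was chosen with earlier results of these data known, so this count is a description. DDIT4 rose in wild type from 9.90, 3.90 and 4.05 CPM to 42.9, 38.9 and 42.1 CPM (2.86 ± 0.21), with replicate 1 in water above the other two, where the knockout libraries overlapped (difference -2.86 ± 0.30). TRIB3 rose in wild type by 2.72 ± 0.07 (difference -2.58 ± 0.10). STC2 rose in wild type (1.61 ± 0.04, difference -1.98 ± 0.07), and CTH, which makes cysteine, rose there by 3.64 ± 0.05 and in the knockout by 1.38 ± 0.06 (difference -2.26 ± 0.09). DEPP1 fell less in wild type (-2.44 ± 0.15, difference -3.07 ± 0.23). PCDH9 lay at 23.8 to 25.9 CPM in wild-type water and 24.5 to 27.3 CPM in wild-type zinc, where the knockout fell (difference -2.39 ± 0.10). BMP2 stood at 0.0384, 0.0330 and 0.142 CPM in wild-type water and 0.373, 0.205 and 0.195 CPM in wild-type zinc (1.70 ± 0.55, difference -2.82 ± 0.55), so its wild-type change rests on few counts. ARC, a neuronal early gene, rose in wild type by 2.95 ± 0.10 against 0.65 ± 0.05 in the knockout (difference -2.29 ± 0.12). For this set the edgeR quasi-likelihood test gave adjusted p of 9.04e-30 (STC2) to 6.32e-05 (BMP2).

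Differences between genotypes were then counted in the stress response lists. Of the 35 ATF4 targets tested 24 were more negative in the knockout and 3 more positive, beside 10.6% and 14.4% of all genes, with a median change of 0.37 in the knockout and 1.08 in wild type. The summed level of the list, which its abundant members set, was lower in the knockout in water, at 3836, 3838 and 3816 CPM against 6969, 6966 and 7101 CPM in wild type, and the sum rose 1.70-fold in the knockout and 1.59-fold in wild type, the opposite order to the medians. SESN2 rose by 1.99 and 3.77 (difference -1.78 ± 0.05), CHAC1 by 3.10 and 4.85 (difference -1.76 ± 0.19) and DDIT3 by 3.28 and 4.31 (difference -1.02 ± 0.12). Of the 28 unfolded protein response genes 14 were more positive and 5 more negative (3 without replicate 1 or 2 of zinc-treated wild type), with medians of 0.44 in the knockout and 0.25 in wild type. HSPA5 rose by 0.46 ± 0.09 in wild type (difference 0.78 ± 0.13), while XBP1 rose more there (1.59 ± 0.03, difference -0.45 ± 0.04). Of the 23 EGR, NR4A, IER and CREB-linked early genes 6 were more positive and 6 more negative, and of the 14 AP-1 genes 3 and 6. The early factors EGR1 (6.92 ± 0.11 in wild type, difference -0.99 ± 0.19), FOS (6.88 ± 0.08, difference -1.14 ± 0.19) and ATF3 (3.81 ± 0.07, difference -1.24 ± 0.10) rose less in the knockout, and EGR3 (4.10 ± 0.14, difference 1.29 ± 0.28) rose more. SLC30A1 rose less in the knockout (4.17 ± 0.04 in wild type, difference -0.62 ± 0.05), and the cochaperones HSPH1 and BAG3 rose by 3.56 ± 0.05 and 3.40 ± 0.06 in wild type, differences from the knockout that did not pass the test (adjusted p = 0.946 and 0.84 in edgeR). Of the 6 metallothioneins tested 2 were more positive in the knockout and 0 more negative. Both of the 2 were MT1 genes, among which the division of reads is uncertain. Summed, the 8 MT1 genes rose 65.8-fold in the knockout and 82.9-fold in wild type, the opposite order. The summed level of the metallothionein list rose 51.6-fold in the knockout and 52.7-fold in wild type. In the HSP70, HSP110 and HSP90 list 7 of 19 genes were more positive and 2 more negative. Adjusted p of the differences that passed, for genes named in this paragraph, ran from 3.84e-33 (SESN2) to 0.00191 (EGR1) (edgeR quasi-likelihood test).

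**Figure D4:**
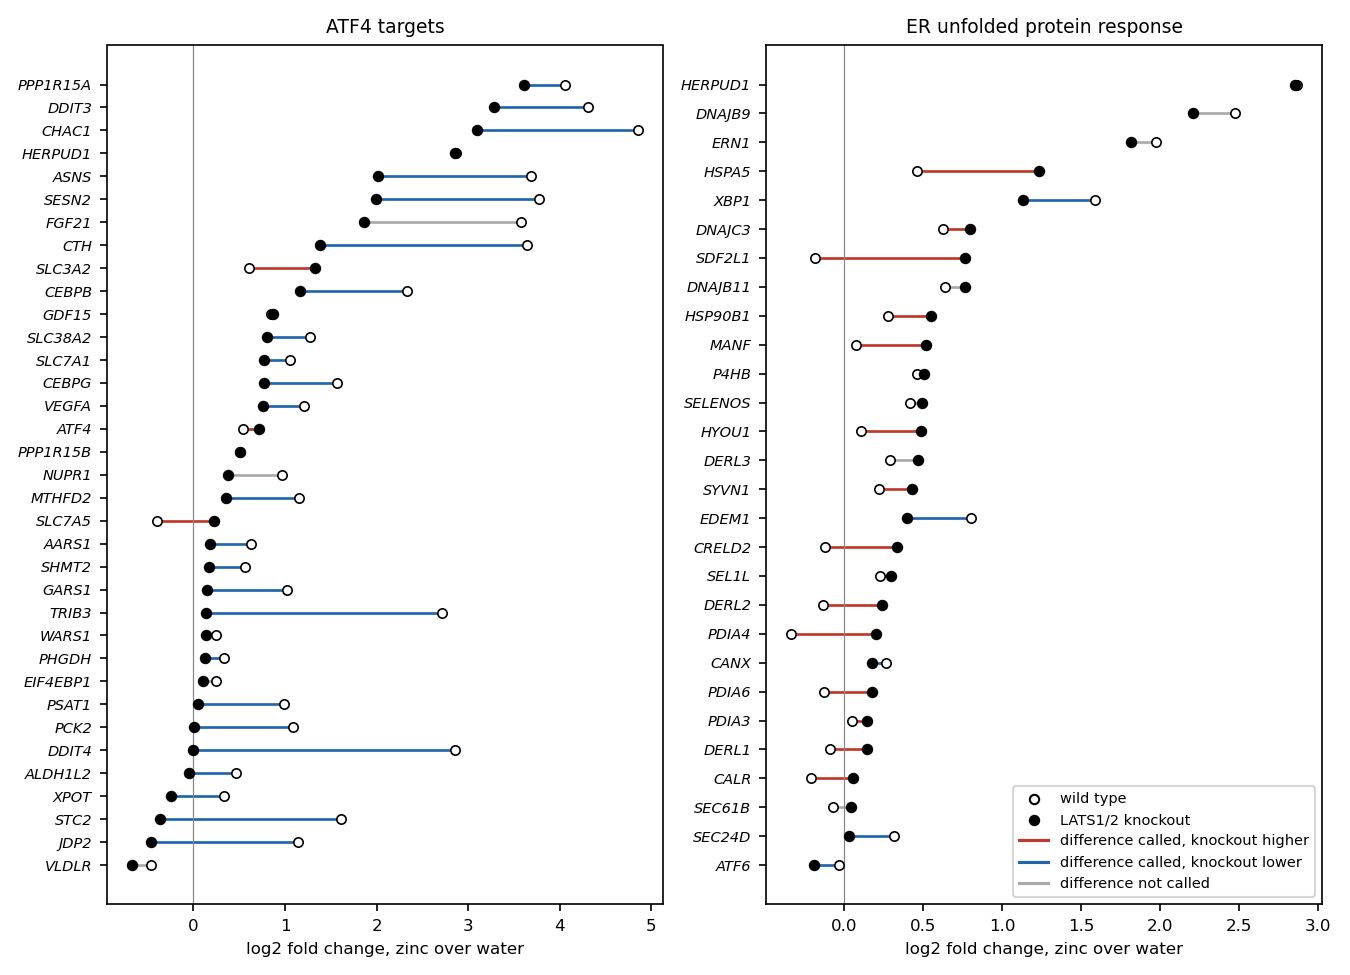
Log2 fold change of zinc over water in wild type (open points) and LATS1/2 knockout (filled points) for each tested gene of the ATF4 list (left) and of the endoplasmic reticulum unfolded protein response (right), joined by a line and sorted by the knockout value. In 24 of 35 ATF4 targets the filled point lies below the open point by a difference that passed the test, and in 14 of 28 unfolded protein response genes above it.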

How the data were processed

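RNA-seq libraries of HEK293A cells, wild type or LATS1/2 double knockout, in water, zinc or cadmium (6 groups of 3 by the labels) were deposited by the authors as whole-number counts per gene. STAR, hg38 and GRCh38.p13 are named in the submitters' processing notes. The annotation, the counting rule and STAR's version were not given in the sources used here. The deposited series table equals the first count column of each of the 18 libraries, which takes reads of both strands, so reads of a gene and of an antisense partner cannot be told apart in it. The column for the minor strand held 5.24% to 5.94% of counts. Of 58336 gene IDs 58216 were found in GENCODE 29 (GRCh38), which gave the coordinates. No column of the table was left unmapped.

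Genes were filtered with filterByExpr (minimum count 10) over the 6 groups, scaled with TMM and tested with edgeR 4.0.16 (R 4.3.3, limma 3.58.1) in 1 robust quasi-likelihood fit of all 18 libraries, with Benjamini-Hochberg adjustment over 19393 genes. The standard error is the log2 fold change divided by the root of its F statistic. CPM were computed from the deposited counts with TMM-scaled totals. In simulated counts for 16897 genes, 94% of genes changed 2-fold were recovered for zinc against water and 88% for the difference. Totals of 26846222 to 37148046 counts a knockout library limit the precision of genes with few counts. A gene at 0 was set against a floor of 3 counts over its group, and 95% intervals of ratios are exact (Clopper-Pearson). Both cover counting error only.

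The 47 gene lists and the comparison were chosen with earlier results of these data known, and the counts over lists are descriptions. Genes were named by rule: the 15 highest and 15 lowest log2 fold changes among called genes of at least 5 CPM whose groups did not overlap, the 8 highest and 8 lowest differences, the 5 most abundant of those that rose 2-fold, all tested members of lists of up to 14 and the 4 highest and 4 lowest called members of longer lists, and LATS1 and LATS2. Clone-named genes were left out. XBP1 was added for its promoter after its values were seen. Promoters came from the RefSeq table (GRCh38.p14), which matched 731 of 916 tested list members. Alternatives were library size alone, DESeq2 size factors, DESeq2 1.42.0, other filters, stranded counts, only the compared groups, a replicate block and leaving out each library. Replicate numbers were not taken to pair libraries. The cadmium comparisons were not analysed here, and some genes the rule allows are not reported here.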

Additional observations from a re-analysis of the deposited data

Results flagged for a closer look

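A different size of zinc response in knockout and wild-type cells singled out these results, each by the interaction test in edgeR at an adjusted p under 0.05. It did so for 4834 of the 19393 genes tested. Among the genes described, the difference of log2 fold changes, knockout minus wild type, was positive for HSPA1A (3.36), MYC (2.92), HSPA6 (2.84), TRIB1 (2.82), DUSP4 (2.23), RNF122 (2.21), SPRY4 (1.92), IER5 (1.92), EGR3 (1.29) and HSPA5 (0.78). It was negative for DEPP1 (-3.07), DDIT4 (-2.86), BMP2 (-2.82), TRIB3 (-2.58), PCDH9 (-2.39), ARC (-2.29), CTH (-2.26), STC2 (-1.98), SESN2 (-1.78), CHAC1 (-1.76), ATF3 (-1.24), FOS (-1.14), DDIT3 (-1.02), EGR1 (-0.99), SLC30A1 (-0.62) and XBP1 (-0.45). HSPA1A and HSPA6 share reads with near copies, and BMP2 had few counts in wild type. Each group held 3 libraries, too few to test single outlying libraries.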

How the results depend on the processing

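All 208 genes described for zinc against water in the knockout kept their direction and call under each of the 14 alternatives in which they were tested. Of the 26 differences described, 25 did so under each of 20, and HSPA6 lost its call without replicate 3 of wild-type water. The count of changed genes ran from 8370 with at least 5 CPM in 3 libraries, which tests 12011 genes, to 11289 with library size alone. That of genes with a difference ran from 4234 to 5096. Requiring 5 CPM left 456 genes higher and 159 lower by at least 2-fold in zinc, and 47 and 87 in the difference. DESeq2 gave 111 genes in place of 189 whose difference was positive and at least 2-fold. The cause was not tested.

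Leaving out 1 library gave 9940 to 10212 changed genes, 4958 to 5204 higher and 4846 to 5070 lower, 1383 to 1448 and 537 to 567 of them by at least 2-fold. For the difference it gave 4234 to 4720 genes, 2485 to 2726 positive and 1702 to 1994 negative, 162 to 207 and 264 to 329 of them by at least 2-fold. Small list counts moved too: splicing genes higher fell from 5 to 3 without water replicate 2, respiratory chain genes higher from 4 to 1 without water replicate 3, and mitochondrial mRNAs higher from 5 to 3 without zinc replicate 1. Counts of 2 became 1 for cochaperones lower (without water replicate 3 or zinc replicate 1), AP-1 genes lower (water 2 or 3, zinc 1 or 3), HSP70 and HSP90 genes lower (water 1 or zinc 2) and importers higher (water 1 or 3). Without replicate 3 of zinc-treated wild type all 26 differences kept their call, and the largest shift was 0.19 (TRIB1).

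Deviations of same-numbered water and zinc libraries of the knockout correlated at 0.0026, 0.0932 and 0.0526, and of differently numbered ones at -0.1101 to 0.0524. Between knockout and wild type in water, same-numbered libraries correlated at 0.1186, 0.0596 and 0.127, others at -0.1385 to 0.0153. In zinc the values were 0.1273, -0.0593 and 0.0707, and -0.1614 to 0.066. Whether equal numbers mark libraries handled together was not tested. With the replicate number as a block 11000 genes changed and 5096 differed. Depth limits genes with few counts, such as MT1B, EGR4 and, in wild type, BMP2.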
